A study of Mus musculus with 4 samples.

Results

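Regulators of G-protein signalling (RGS proteins) were measured here in macrophages sorted from mouse gastrointestinal stromal tumours, a gut wall sarcoma usually driven by the Kit kinase. The family was followed through 9 genes (Rgs1, Rgs2, Rgs3, Rgs5, Rgs10, Rgs14, Rgs16, Rgs18 and Rgs19) of 12393 that the array annotation named, and through all 20 of their probe sets that carried a single gene symbol. Imatinib, which inhibits Kit, Pdgfr, Abl and Csf1r kinases, was dosed through drinking water (600 mg/L) over 2 weeks in one group, and the other group was the vehicle control. All animals were GIST mice by the labels, which give no allele, strain, age or sort markers. Tumour macrophages of the 8 mice of a group were pooled after sorting, and each group had 2 Affymetrix arrays of 200 ng RNA each. The design text calls these arrays duplicates of a pool and the titles call them biological replicates, so a p-value here reflects array-to-array spread that may be purely technical.

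G-protein-coupled receptors switch on heterotrimeric G proteins by loading GTP onto the alpha subunit. An RGS protein binds the GTP-loaded alpha subunit through its RGS domain and speeds up hydrolysis of the GTP, which shuts the signal off. In leukocytes the family is best known for limiting responses to chemokines and other chemoattractants, and its members differ in which alpha subunits they act on. By subfamily, Rgs1, Rgs2, Rgs3, Rgs5, Rgs16 and Rgs18 belong to R4, Rgs10 and Rgs14 to R12, and Rgs19 to RZ.

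Of the 20 probe sets, 15 were bright enough on average to be tested (a mean signal at or above the 40th percentile, 82.9), at least 1 for each of the 9 genes. On the deposited array scale, 5 of the 15 probe sets (of Rgs1, Rgs2, Rgs10 and Rgs18) rose with imatinib by 1.18-fold to 1.73-fold, though with macrophage markers set equal the differences of all but Rgs18 turned negative. A probe set of Rgs5 was the 1 that fell. With limma and Benjamini-Hochberg adjustment below 0.05, 6.20% of all 13576 probe sets tested were higher and 7.38% were lower. The arrays of the groups did not overlap for 9 of the 15 RGS probe sets, against 54.7% of all tested probe sets. The median log2 difference, imatinib minus vehicle, was 0.06 over the 15 and -0.01 over all probe sets tested. Each log2 difference would be 0.16 larger with array medians set equal, and 0.42 smaller with 17 macrophage markers set equal on all arrays. On that macrophage-marker scale none of the RGS probe sets was higher (0 also at an unadjusted p under 0.05 in limma) and 6 were lower, where 1.38% of all probe sets were higher and 51.0% lower. With array medians set equal, 4 were higher and none lower (limma, 0 lower also at an unadjusted p under 0.05), where 11.7% of all probe sets were higher and 5.18% lower.

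The promoters of the called genes are shown because Rgs2 and Rgs10 rose on the deposited scale while Rgs5 fell. RefSeq windows of build GRCm38.p6 were matched by symbol for 6 of the 9 genes, and not for Rgs1, Rgs14 and Rgs18. These 6 genes had 9 windows between them, and only the first listed window of a gene was read. Capitals mark matches on either strand to TGACG, the core of the cyclic AMP response element, to CCAAT, and to the GC box GGGCGG. Each is written 5′ to 3′ on the strand of the gene, with the annotated start 50 bases from its 3′ end. The Rgs2 window is chr1:144004100-144004399 (minus strand), the Rgs10 window chr7:128418123-128418422 (minus strand) and the Rgs5 window chr1:169655251-169655550 (plus strand).
Rgs2: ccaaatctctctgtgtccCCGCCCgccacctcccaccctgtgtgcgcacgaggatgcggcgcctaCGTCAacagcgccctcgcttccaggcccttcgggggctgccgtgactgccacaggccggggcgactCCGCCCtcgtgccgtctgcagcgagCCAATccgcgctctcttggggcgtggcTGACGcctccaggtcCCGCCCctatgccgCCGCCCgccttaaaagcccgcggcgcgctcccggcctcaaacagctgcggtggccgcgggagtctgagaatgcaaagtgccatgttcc
Rgs10: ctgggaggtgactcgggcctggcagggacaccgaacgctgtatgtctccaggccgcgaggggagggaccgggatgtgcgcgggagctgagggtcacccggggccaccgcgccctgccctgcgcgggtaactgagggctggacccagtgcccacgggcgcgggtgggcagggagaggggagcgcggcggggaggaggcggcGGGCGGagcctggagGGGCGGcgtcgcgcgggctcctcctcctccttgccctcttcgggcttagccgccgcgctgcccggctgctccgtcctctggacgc
Rgs5: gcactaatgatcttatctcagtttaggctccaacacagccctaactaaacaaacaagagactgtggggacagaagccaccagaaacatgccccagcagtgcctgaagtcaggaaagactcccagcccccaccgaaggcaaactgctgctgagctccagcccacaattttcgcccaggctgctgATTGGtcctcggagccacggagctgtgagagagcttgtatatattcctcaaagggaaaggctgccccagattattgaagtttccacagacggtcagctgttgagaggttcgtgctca
The Rgs2 window held 2 matches to TGACG, 1 to CCAAT and 4 to GGGCGG, none of them overlapping. The Rgs10 window held 2 matches to GGGCGG, and the Rgs5 window held 1 to CCAAT. Among all 32851 promoter windows of that length, 20.8% held TGACG, 37.4% CCAAT and 35.7% GGGCGG. The AP-1 motif TGANTCA was found in 7.81% of all windows and in none of these 3. These matches describe letters in the windows and are not measured binding sites.

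Rgs1 encodes a small RGS protein of activated B cells, T cells and macrophages that dampens chemokine receptor signalling. Its single probe set, 1417601_at, had signals of 17989 and 17068 on the imatinib arrays and 14091 and 13867 on the vehicle arrays. Both imatinib arrays lay above both vehicle arrays. Rgs1 averaged 17528 ± 651.7 with imatinib and 13979 ± 158.3 with vehicle (SD, n = 2 each). It rose 1.25-fold (log2 difference 0.33 ± 0.07, SE, limma adjusted p = 0.011), and the difference was -0.091 on the macrophage-marker scale (limma adjusted p = 0.19).

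Rgs2 encodes a small RGS protein that prefers Gq alpha subunits and also restrains adenylyl cyclase. Its transcript is rapidly inducible in many cell types. Probe set 1419248_at read 19109.6 and 18519.9 on the imatinib arrays, against 15945 and 15936 on the vehicle arrays. Probe set 1419247_at read 10763.5 and 11059.6 with imatinib and 8385 and 8435 with vehicle. Neither probe set had overlapping groups. The first rose 1.18-fold (log2 difference 0.24 ± 0.07, SE, limma adjusted p = 0.042) and the second 1.30-fold (0.37 ± 0.07, limma adjusted p = 0.0054). On the macrophage-marker scale both turned negative, at -0.18 (limma adjusted p = 0.025) and -0.042 (limma adjusted p = 0.56). The first was also not called with array medians set equal (0.40, limma adjusted p = 0.058), under quantile normalization (0.11, limma adjusted p = 0.17) or with the replicate number as a block (limma adjusted p = 0.063).

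Rgs18 encodes an RGS protein of platelets, megakaryocytes and myeloid cells. Probe set 1420398_at read 258.2 and 260.9 with imatinib and 129.9 and 143.3 with vehicle. The imatinib arrays lay within 3 signal units of each other and well above both vehicle arrays. The rise was 1.73-fold (log2 difference 0.79 ± 0.18, SE, limma adjusted p = 0.017), a difference larger than that of 98.6% of all tested probe sets. It stayed positive on the macrophage-marker scale (0.37), where it was not called (limma adjusted p = 0.11). The second Rgs18 probe set, 1449856_at, read 125.8 and 175.8 with imatinib and 118.0 and 65.6 with vehicle. Its arrays did not overlap either, but the log2 difference of 0.58 ± 0.28 (SE) did not pass (limma adjusted p = 0.22).

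Platelet markers gave mixed values on the same arrays. Of 6 tested platelet and megakaryocyte genes, Clec1b (4.67-fold) and the chemokine gene Pf4 (1.80-fold) were higher and none was lower, with a list median of -0.22. By brightest probe set, 6.20% of all tested genes were higher and 8.46% lower. The summed signal of the 9 list genes on the array was 6736 to 7102 with imatinib and 3902 to 4045 with vehicle, most of it Pf4. The other 7 genes, without Clec1b and Pf4, summed to 482.3 to 536.6 with imatinib and 581.0 to 757.4 with vehicle. The platelet glycoprotein gene Gp9 and the integrin gene Itgb3 stayed below a signal of 32 on all 4 arrays. The part of these markers in the Rgs18 rise was not tested. In pooled sorted cells, more cells of a type and more RNA per cell cannot be told apart.

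Rgs5, a small RGS protein best known as a marker of pericytes, the mural cells of small vessels, gave unlike readings from its 4 probe sets. Probe set 1417466_at read 1174 and 1082 with imatinib and 1439 and 1476 with vehicle, with no overlap. It fell by 0.36 on the log2 scale (SE 0.10, limma adjusted p = 0.036), or by 0.78 on the macrophage-marker scale. The difference was -0.20 with array medians set equal (limma adjusted p = 0.35), and the limma adjusted p was 0.060 with the replicate number as a block. The other 3 overlapped between groups. Probe set 1420941_at read 194.8 and 242.9 with imatinib and 186.5 and 230.3 with vehicle, with a log2 difference of 0.06 ± 0.19 (SE). Probe set 1420940_x_at, of a kind that may hit other transcripts, read 121.8 and 127.9 with imatinib and 122.0 and 120.0 with vehicle (0.04 ± 0.22). The signals of 1420942_s_at, at most 55.2 on any array, were under the filter. Whether the probe sets of Rgs5 differ from each other in their response was not tested.

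Other mural cell transcripts were also lower in part. Of 7 tested smooth muscle and pericyte markers, the actin gene Acta2 (log2 difference -0.82 ± 0.11, SE) and the receptor gene Pdgfrb (-0.97 ± 0.19) were called lower. None was called higher (limma, 0 higher also at an unadjusted p under 0.05). By brightest probe set, 8.46% of all tested genes were lower and 6.20% higher. The median of the 7 markers was -0.75, and the uncalled Myl9 went the other way (0.17 ± 0.21). A further 7 list genes were too dim on average to be tested, and of them only Cnn1 stayed below a signal of 32 on all arrays. The summed signal of the 14 list genes on the array was 1837 to 1989 with imatinib and 2970 to 3305 with vehicle. The part of mural cells in the Rgs5 difference was not tested. Pdgfrb was not called without imatinib replicate 1 (limma adjusted p = 0.056).

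Rgs3 encodes short and long forms, some of them with further domains ahead of the RGS domain, and 4 probe sets read it. Probe set 1425296_a_at read 329.8 and 273.8 with imatinib and 373.5 and 401.4 with vehicle. Probe set 1449516_a_at read 157.5 and 166.9 with imatinib and 179.9 and 232.4 with vehicle. Both had separate groups with the imatinib arrays lower, but neither passed, with log2 differences of -0.33 ± 0.15 (SE, limma adjusted p = 0.20) and -0.29 ± 0.20 (limma adjusted p = 0.41). On the macrophage-marker scale both were called lower, at -0.75 and -0.70, where 51.0% of all tested probe sets were lower (median -0.43 over all). The other 2 Rgs3 probe sets lay under the filter. Of these, 1425701_a_at read 34.2 and 29.4 with imatinib and 40.6 and 60.8 with vehicle, and 1454026_a_at did not exceed 12.2 on any array.

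Rgs16, an inducible regulator known from activated lymphocytes, was dim on this array. Its only tested probe set, 1455265_a_at, read 103.0 and 138.4 with imatinib and 228.6 and 92.5 with vehicle. The vehicle arrays differed from each other by more than the imatinib arrays did and enclosed them. The log2 difference of -0.25 ± 0.33 (SE, limma adjusted p = 0.69) became 0.28 without vehicle replicate 1. Under the filter, 1451452_a_at read 60.1 and 45.2 with imatinib and 10.9 and 37.2 with vehicle, and 1426037_a_at stayed at or below 7.93.

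Rgs10 encodes a small RGS protein, abundant in microglia and macrophages, that acts on Gi alpha subunits and is known to restrain inflammatory gene expression. Its probe set 1416882_at read 6883 and 6906 with imatinib and 5419 and 5052 with vehicle. The imatinib arrays were nearly equal and both exceeded the vehicle arrays. Rgs10 rose 1.32-fold (log2 difference 0.40 ± 0.08, SE, limma adjusted p = 0.0064), and on the macrophage-marker scale the difference was -0.021 (limma adjusted p = 0.80). The other R12 member, Rgs14, is a scaffold that also holds a GoLoco motif for inactive Gi alpha subunits. Its probe set 1419221_a_at read 593.8 and 513.3 with imatinib and 653.9 and 402.4 with vehicle, so the imatinib arrays lay between the vehicle arrays. The log2 difference was 0.10 ± 0.19 (SE, limma adjusted p = 0.81), with a 95% interval of 0.794-fold to 1.44-fold. Its sign turned without imatinib replicate 1 (-0.0014), without vehicle replicate 2 (-0.23) and on the macrophage-marker scale (-0.32).

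Rgs19, the RZ member, also called GAIP, acts on Gi alpha subunits and is attached to membranes of the secretory pathway. Probe set 1417786_a_at read 1012 and 984.0 with imatinib and 1015 and 972.2 with vehicle. Its groups overlapped almost fully. The log2 difference was 0.01 ± 0.10 (SE, limma adjusted p = 0.98), with a 95% interval of 0.857-fold to 1.18-fold. Probe set 1434940_x_at read 991.1 and 1060 with imatinib and 1376 and 1037 with vehicle, with overlapping groups and a log2 difference of -0.22 ± 0.13 (limma adjusted p = 0.35). On the macrophage-marker scale both Rgs19 probe sets were called lower, at -0.41 and -0.63. So were 51.0% of all tested probe sets on that scale, with a median of -0.43 over all.

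**Figure D1:**
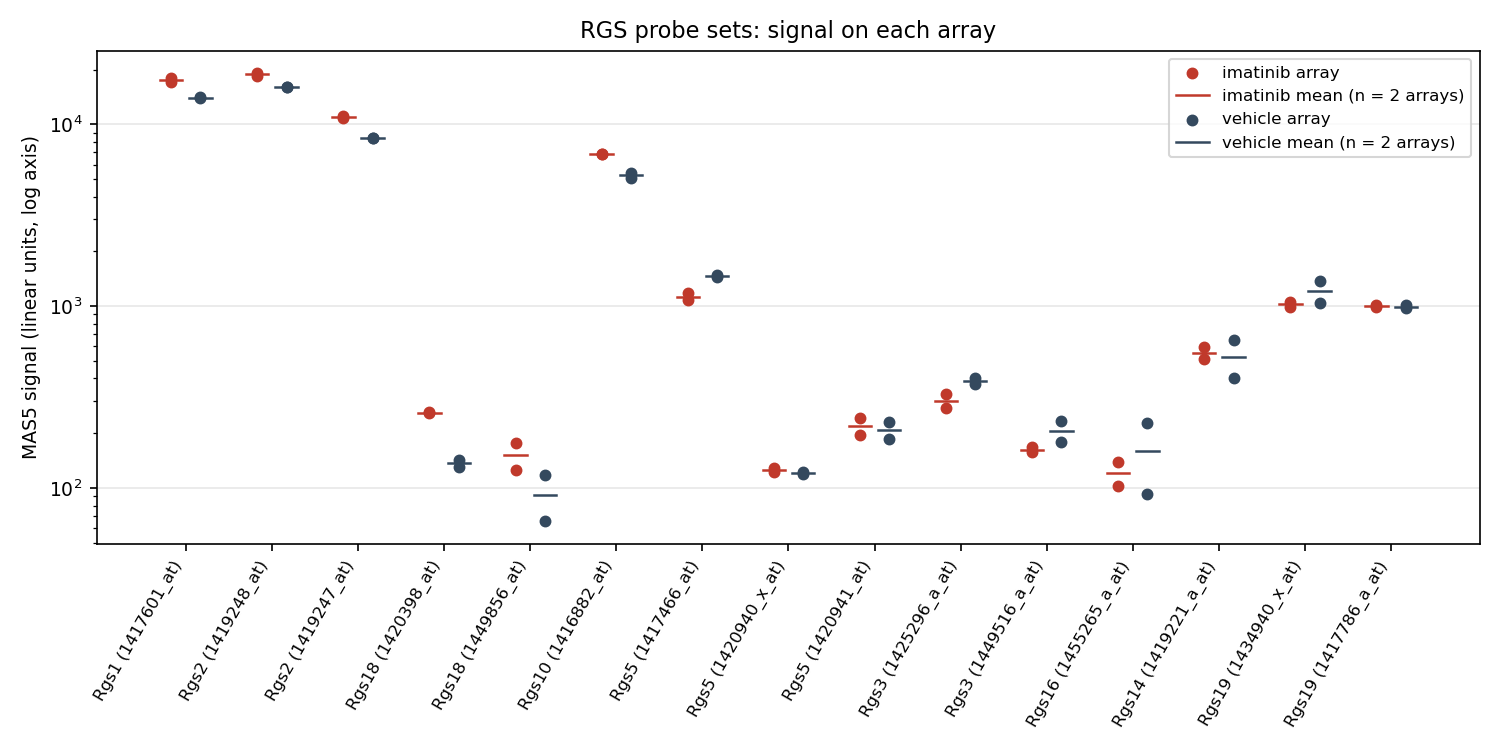
MAS5 signal (linear units on a log axis) of the 15 tested RGS probe sets, with 1 point per array and a bar at the mean of the 2 imatinib (red, left) or 2 vehicle (dark, right) arrays. On the deposited scale the imatinib points lie above the vehicle points for Rgs1, Rgs2, Rgs18 and Rgs10 and below them for Rgs5 1417466_at and both Rgs3 probe sets. With macrophage markers set equal, the differences of Rgs1, Rgs2 and Rgs10 turn negative.

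Leaving out single arrays moved these calls, and fewer of all tested probe sets passed in each such fit as well. Of the 15 RGS probe sets, 2 were higher without imatinib replicate 1 (Rgs10 and Rgs2 1419247_at), 3 without imatinib replicate 2 (Rgs1, Rgs10 and Rgs2 1419247_at), 1 without vehicle replicate 1 (Rgs10) and 2 without vehicle replicate 2 (Rgs2 1419247_at and Rgs18 1420398_at). All 5 higher probe sets kept a positive difference in each case. The Rgs5 call was lost whichever array was left out, with log2 differences from -0.42 to -0.30.

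**Figure D2:**
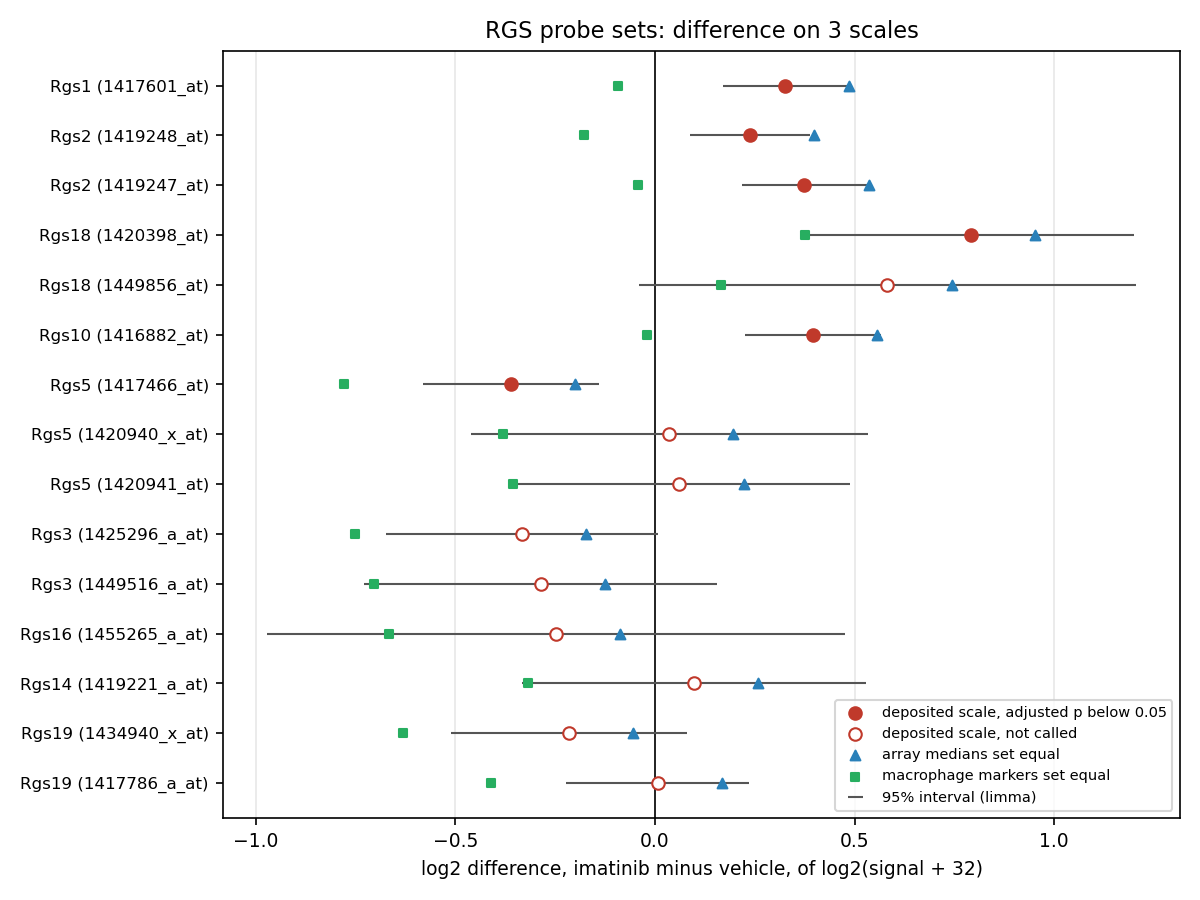
Log2 difference, imatinib minus vehicle, of log2(signal + 32) for the 15 tested RGS probe sets, with limma's 95% interval on the deposited scale (circles, filled where the adjusted p was below 0.05). Triangles give the difference with array medians set equal and squares with macrophage markers set equal, where of the 5 called increases only Rgs18 1420398_at (0.37) stays above 0.

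In the RefSeq annotation, 5 of the 9 genes lie on chromosome 1. There Rgs2, Rgs13, Rgs1, Rgs21 and Rgs18 are 5 protein-coding genes in a row with no other coding gene between them. Of these, 3 (Rgs1, Rgs2 and Rgs18) had a probe set with a single symbol. All 3 had a called increase on the deposited scale, as had 6.20% of all tested genes by their brightest probe set. The second Rgs18 probe set was not called (limma adjusted p = 0.22). On the macrophage-marker scale the difference was positive only for Rgs18. These are called genes already described, grouped by position. Rgs16 and Rgs5 lie elsewhere on that chromosome, next to Rgs8 and Rgs4. No called increase was seen for either, and Rgs5 1417466_at was called lower on the deposited scale (log2 difference -0.36).

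A further 8 RGS genes on the array were mostly dim. Of these, Rgs9, a regulator of retina and striatum, was the only 1 tested, with 137.3 and 283.1 with imatinib and 284.5 and 211.6 with vehicle (limma adjusted p = 0.60). The brightest probe set of Rgs4 read 34.3 and 87.2 with imatinib and 101.5 and 79.5 with vehicle. Rgs7 read 3.20 and 2.82 with imatinib and 38.8 and 38.5 with vehicle, all under the filter. Rgs6 and Rgs8 stayed below 32 on every array, and Rgs11, Rgs17 and Rgs20 did not exceed 53.2.

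On the deposited scale, 4 of 18 tested genes for G-protein alpha, beta and gamma subunits passed, all of them lower. Of these subunits, the RGS domain binds the alpha subunit. A gene was read here by its brightest probe set, and on that reading 6.20% of 8156 genes had a called increase and 8.46% a called decrease. Of 9 tested alpha subunit genes, none was higher (limma, 0 also at an unadjusted p under 0.05). Lower were Gna11, a Gq-class subunit (325.2 and 389.4 with imatinib, 782.5 and 691.6 with vehicle, log2 difference -0.98 ± 0.14, SE), and the dim Gi subunit gene Gnai1 (-1.07 ± 0.30). Gna11 stayed called under all 16 alternatives, and the Gnai1 call was lost without any 1 of the 4 arrays. Of 9 beta and gamma subunit genes, none was higher (1 at an unadjusted p under 0.05 in limma). Gng11 (-0.75 ± 0.12) and Gnb4 (-0.54 ± 0.15) were lower, and Gng11 alone kept its call under all 16 alternatives. List medians were 0.07 and -0.16, against -0.02 over all tested genes. With macrophage markers set equal, 8 of 9 alpha subunit genes and 7 of 9 beta and gamma subunit genes were lower, with medians of -0.35 and -0.57. On that scale 51.0% of all tested probe sets were lower, with a median of -0.43 over all.

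Among other regulators and effectors of G proteins, 3 genes passed on the deposited scale. By brightest probe set, 6.20% of all tested genes were higher and 8.46% lower on that scale. Of 12 further regulators, among them arrestins and receptor kinases, only Gpsm2, a binder of inactive Gi alpha subunits, passed (-0.86 ± 0.25, SE), and not without any 1 of the 4 arrays. Of 11 effectors, the adenylyl cyclase gene Adcy7 rose 1.26-fold (3421 and 3187 with imatinib, 2525 and 2725 with vehicle), though its difference was -0.088 on the macrophage-marker scale. The cyclase gene Adcy6 fell by 0.83 on the log2 scale. Both effector calls were lost without any 1 of the 4 arrays. On the macrophage-marker scale, 10 of 12 regulators (median -0.60) and 3 of 11 effectors (median -0.23) were lower. Of all tested probe sets 51.0% were lower on that scale (median -0.43 over all).

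Upstream of the G proteins, 22 G-protein-coupled receptors of macrophages were tested. On the deposited scale 6.20% of all tested genes were higher by their brightest probe set. Of the 22 receptors 12 were higher and none lower (limma, 0 lower also at an unadjusted p under 0.05), with a median of 0.33. Among them were the adhesion receptor Adgre4 (3.65-fold), the chemokine receptor Cxcr4 (5170 and 5308 with imatinib, 1917 and 2060 with vehicle, 2.61-fold), the histamine receptor Hrh1 (2.07-fold) and Adgre5 (1.82-fold). With macrophage markers set equal, 4 receptors were higher and 7 lower, and the median was -0.087. Of all tested probe sets 1.38% were higher and 51.0% lower on that scale. Hrh1 was not called without imatinib replicate 1 (limma adjusted p = 0.062). The count of higher receptors was 6 without imatinib replicate 1, 7 without imatinib replicate 2, 5 without vehicle replicate 1 and 9 without vehicle replicate 2.

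Immediate early and stress genes are switched on by cells within minutes of a stimulus, and many were also higher. On the deposited scale 21 of 26 tested were higher and none lower (limma, 0 lower also at an unadjusted p under 0.05), with a median of 0.47. By brightest probe set, 6.20% of all tested genes were higher. With macrophage markers set equal the list median was 0.06, and 9 of its genes were higher and 5 lower. Of all tested probe sets 1.38% were higher and 51.0% lower on that scale. Klf2 (2.48-fold), the phosphatase gene Dusp2 (2.22-fold), Fosb (2.07-fold) and Btg2 (2.01-fold) led the list. Their part in the RGS increases was not tested.

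**Figure D3:**
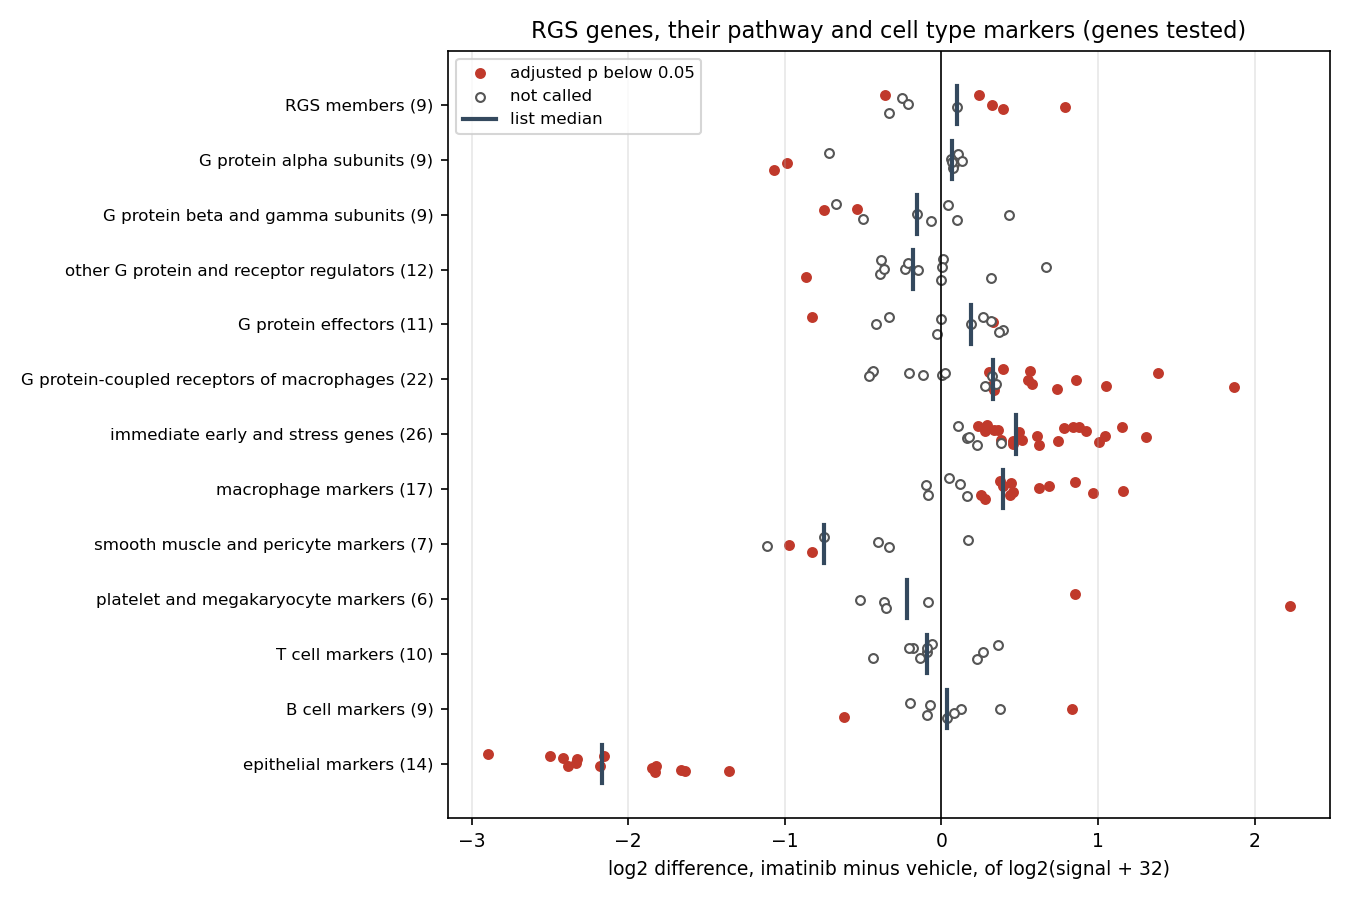
Log2 difference, imatinib minus vehicle, of every tested gene (1 point per gene, by its brightest probe set; filled where limma's adjusted p was below 0.05) in the RGS family, its pathway lists and selected marker lists, with a bar at the list median and the number of genes tested in brackets. The RGS genes run from -0.36 to 0.79 with a median of 0.10 (-0.32 with macrophage markers set equal). On the deposited scale 12 of 22 receptors and 21 of 26 immediate early and stress genes are filled above 0, against 6.20% of all tested genes. With macrophage markers set equal, 4 receptors were higher and 7 lower, where 1.38% of all probe sets were higher and 51.0% lower.

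The genes with profiles most like Rgs18 and Rgs5 were sought among 8026 other tested genes, by the root mean square difference between centred log2 profiles over the 4 arrays. With 4 arrays this likeness reflects little more than a similar difference between the groups. Nearest to Rgs18 1420398_at were the chaperone gene Dnaja1 (0.017), the cytokine gene Il10 (0.019) and the phagosomal metal transporter gene Slc11a1 (0.027). Il10 read 437.0 and 428.3 with imatinib and 228.4 and 253.6 with vehicle. Nearest to Rgs5 1417466_at were Fdx1 (0.0099), Chfr (0.013) and Tnfaip1 (0.014). Fdx1, an electron carrier of mitochondria, read 639.4 and 590.3 with imatinib and 799.4 and 805.4 with vehicle.

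The make-up and quality of the samples differed between the groups on the same arrays. Marker calls are first given on the deposited scale, where 6.20% of all tested genes were higher and 8.46% lower by brightest probe set. Of 17 macrophage markers, 12 were higher and none lower, with a summed signal of 217594 to 228385 with imatinib and 185620 to 186106 with vehicle. All 14 epithelial markers were lower, with sums of 6800 to 6909 with imatinib and 33467 to 33775 with vehicle. Of 10 T cell and 8 endothelial markers none passed (limma, 0 also at an unadjusted p under 0.05), and of 9 B cell markers 1 was higher and 1 lower. Of 10 dendritic cell markers 4 were higher, among them the lectin gene Cd209a (2.80-fold) and Cd83 (2.03-fold). The list sums were 19403 to 20232 with imatinib and 11151 to 11943 with vehicle. Most of each sum was Cd83 (14877 and 13894 with imatinib, 6660 and 7495 with vehicle). Of 9 NK and cytotoxic cell markers 3 were higher, with sums of 5703 to 5945 with imatinib and 4534 to 4566 with vehicle. Of 12 fibroblast markers 2 were higher and 5 lower (median -0.70), with sums of 5890 to 6349 with imatinib and 9209 to 9697 with vehicle. Of 8 markers of GIST and interstitial Cajal cells 3 were lower, with sums of 1522 to 1575 with imatinib and 2142 to 2148 with vehicle. Of 4 neutrophil markers 1 was higher. Of 5 mast cell markers 1 was lower, Kit, which is also among the 3 lower GIST and Cajal cell markers. Summed T cell signal was 2676 to 2939 with imatinib and 2667 to 3389 with vehicle, and summed B cell signal was 41320 to 43402 with imatinib and 42405 to 44967 with vehicle. These marker calls depended on the scale. With macrophage markers set equal, 4 macrophage markers were higher and 5 lower. All 14 epithelial, 4 T cell and 3 endothelial markers were lower, and no NK and cytotoxic or neutrophil marker was called. Of all tested probe sets 1.38% were higher and 51.0% lower on that scale. The ratio of 3' to 5' Gapdh control signal, which grows as RNA or its labelling falls short of full length, was 2.34 and 2.09 with imatinib and 2.91 and 2.76 with vehicle. The part of these differences in the RGS values was not tested.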

How the data were processed

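Linear microarray intensity values were deposited. Per the submitters' processing notes, the authors used MAS5 and Affymetrix Expression Console, whose versions are not given in the sources. On all 4 arrays the trimmed mean (2% off each end) was 500.3. A change in bright transcripts that are not trimmed therefore moves all others, and background subtraction leaves dim signals noisy. Median signals were 121.5 and 132.9 on the imatinib arrays and 151.5 and 140.4 on the vehicle arrays. The number of arrays limits the precision.

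After removing 64 control probe sets, 22626 remained, of which 20380 had 1 gene symbol, 691 several and 1555 none. Signals were taken as log2(signal + 32), so that folds are on that scale and understate changes of dim genes. Each probe set with a mean at or above the 40th percentile was tested with limma 3.58.1 in R 4.3.3 (two-sided, with a mean-variance trend). Benjamini-Hochberg adjustment ran over all 13576, with a threshold of 0.05. Symbols were checked against RefSeq of GRCm38.p6 by gene ID, and 20351 matched. The procedure was tested on simulated data. Alternatives changed the pseudocount, filter, normalization, scaling, variance prior, probe set choice, replicate block and arrays used.

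Members, gene lists and tests were chosen with earlier results of these data known. All 9 RGS genes are named. From other lists the rule takes up to 4 called genes by size of difference (or 2 bright ones where none passed), and the 3 genes most like the largest called increase and decrease. Gp9, Itgb3, Cnn1 and Myl9 were named after their values were seen. Python 3.11.15, pandas 2.3.3, numpy 2.4.6 and matplotlib 3.10.9 were also used.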

Additional observations from a re-analysis of the deposited data

How the results depend on the processing

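All 16 alternatives gave values. On the deposited scale 842 probe sets were higher and 1002 lower. With array medians set equal 1583 were higher and 703 lower, and with macrophage markers set equal 187 were higher and 6926 lower. Without a filter the counts were 434 and 635, and without the mean-variance trend 262 and 640. Testing 1 probe set per gene gave 550 higher, and leaving out the _s_at, _x_at and _a_at probe sets gave 609 lower, both over fewer probe sets. Leaving out 1 array gave 303 to 646 higher and 600 to 798 lower.

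The 5 higher RGS probe sets became 2 without a filter, 0 with macrophage markers set equal and 1 without the trend, and 1 to 3 with 1 array left out. The 1 lower RGS probe set became 6 with macrophage markers set equal. It became 0 without a filter, with equal array medians, without the trend, with the replicate block and whichever array was left out (0 to 0). The 12 higher receptors became 5 both without a filter and without the trend, and the 21 higher immediate early and stress genes became 10 without the trend. The cause of these shifts was not tested. A group with 1 array left is assumed to vary like the other.

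With macrophage markers set equal, log2 differences turned negative for Rgs1 (-0.091), Rgs10 (-0.021), Rgs14 (-0.32), Rgs19 1417786_a_at (-0.41), Rgs2 (-0.042 and -0.18), Rgs5 1420940_x_at (-0.38) and 1420941_at (-0.36), and Adcy7 (-0.088). Rgs19 1417786_a_at also turned under quantile normalization (-0.012). With 1 array left out, 4 uncalled probe sets changed sign. Rgs19 1417786_a_at ran from -0.024 (without vehicle replicate 2) to 0.037, Rgs14 from -0.23 (without vehicle replicate 2) to 0.43, Rgs16 from -0.78 to 0.28 (without vehicle replicate 1), and Rgs5 1420941_at from -0.078 (without imatinib replicate 2) to 0.20.

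The titles number the arrays 1 and 2 in each group. Same-numbered arrays did not deviate together (r = -0.10 across probe sets), so the numbers were not read as a pairing. The replicate block gave 763 higher and 987 lower.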
